A study of Sus scrofa with 16 samples.

Results

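The genes that make, import, store and export cholesterol, and those that control the transcription factor SREBP2, were followed in the liver of fattening pigs. The members were 32 genes named by symbol, 18 of them enzymes of cholesterol synthesis and 14 regulators, importers, carriers, exporters or esterifying enzymes, out of 25880 genes counted. For 31 of the 32, the symbol belonged to 1 identifier of the count files, while the identifier of PMVK (phosphomevalonate kinase) was not among those counted. In each pair of diets 27 members had enough reads to be tested, namely 15 enzymes and 12 others.

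Liver RNA came from 16 crossbred pigs, whose dams were (Polish Landrace x Polish Large White) and whose sires were (Duroc x Pietrain), fattened from about 60 to 118 kg on feeds of like energy and protein content that differed in the added fat. Group R received rapeseed oil (5 pigs, 3 gilts and 2 barrows), group B beef tallow (5 pigs, 2 gilts and 3 barrows) and group C coconut oil (6 pigs, 3 gilts and 3 barrows), and no group was without an added fat. The labels give the sexes as female and male, and the study names its castrated males barrows. One library per pig was read from the 3′ ends of mRNA, so that each pig is 1 replicate and no organ other than the liver was examined here.

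Cholesterol is built from acetyl-CoA, first along the mevalonate pathway, which makes isoprenoids, and then from squalene, which is closed into lanosterol and trimmed to cholesterol. SREBP2, the product of SREBF2, switches on most genes of this route. When sterols are scarce, the escort protein SCAP carries SREBP2 from the endoplasmic reticulum to the Golgi, where it is cut and released, and when sterols are plentiful the INSIG proteins hold SCAP back. The liver also takes up cholesterol from lipoproteins, stores it as esters and secretes it into bile.

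Library sizes ran from 705669 to 1767671 reads on genes (median 1018321.5), and no 2 libraries were identical. Levels are given as CPM, read counts scaled to a common library total and normalized by TMM over all 16 pigs, in which 1 read is worth between 0.563 and 1.54 CPM. The 8 hepatocyte markers summed to between 83167 and 225626 CPM per pig, with ALB at a mean of 88809 CPM and SERPINA1 at 7 reads over all pigs. The 4 matched cholangiocyte markers summed to 28.4 CPM or less and the 4 adipocyte markers to 20.7 CPM or less. The library of pig 3 in group B stood apart on the first principal component of all genes, at 68.3 against -19.5 to 19.6 for the other 15 pigs. In bulk liver, fewer cells of a type and less RNA per cell cannot be told apart.

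Matched members with too few reads to test were ACAT2, the cytosolic thiolase of the first step (41 reads over all pigs, at most 7 in 1 pig), NPC1, the lysosomal cholesterol exporter (46 reads, at most 7), and MYLIP, the ubiquitin ligase IDOL (86 reads, at most 24). FDPS, farnesyl diphosphate synthase, was listed at 0 reads in all 16 pigs, which allows between 1.69 and 4.63 CPM at the depth of each library (3 reads, counting error only). A read with more than 1 alignment was given to no gene, and the part of such reads in this value was not tested.

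The comparison of beef tallow with rapeseed oil asks how a ruminant fat changed the liver relative to a plant oil rich in unsaturated fat. A pair of steps of cholesterol synthesis fell in group B, namely FDFT1, squalene synthase, which commits farnesyl units to sterols, and MVD, the decarboxylase that closes the mevalonate pathway. Mean FDFT1 was 383 ± 206 CPM in group R and 110 ± 29.3 CPM in group B (SD, n = 5 each), and mean MVD was 31.0 ± 12.7 against 8.97 ± 3.17 CPM. Of the 27 members tested, these 2 passed an adjusted p of 0.05 (edgeR, Benjamini-Hochberg over 6318 genes), both lower, where 1.11% of all genes passed in either direction and 0.459% as lower. The other 25 did not pass, among them all 4 regulators of SREBP2.

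FDFT1 (ENSSSCG00000026044; chromosome 14, 14976259 to 15010701 in RefSeq of Sscrofa11.1) had 97 reads or more in each pig. In group R, pigs 1 to 5 had 235, 281, 628, 189 and 580 CPM. In group B, pigs 1 to 5 had 98.6, 151, 72.9, 103 and 125 CPM. Every pig of group B lay below every pig of group R, and within group R the barrows, pigs 3 and 5, were far above the gilts. The log2 fold change was -1.80 (SE 0.32, 95% interval -2.48 to -1.12, adjusted p = 0.0204, edgeR).

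MVD (ENSSSCG00000034905; chromosome 6, 1008100 to 1014303 in the same build) was a gene of few reads, with 6 in the poorest pig and 76 in the richest. Pigs 1 to 5 of group R had 41.9, 16.4, 31.0, 20.6 and 45.2 CPM. Those of group B had 9.93, 13.8, 5.91, 6.37 and 8.85 CPM. The groups did not overlap, although group R pig 2 and group B pig 2 were close to each other. The log2 fold change was -1.81 (SE 0.34, 95% interval -2.53 to -1.09, adjusted p = 0.0240, edgeR).

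**Figure D1:**
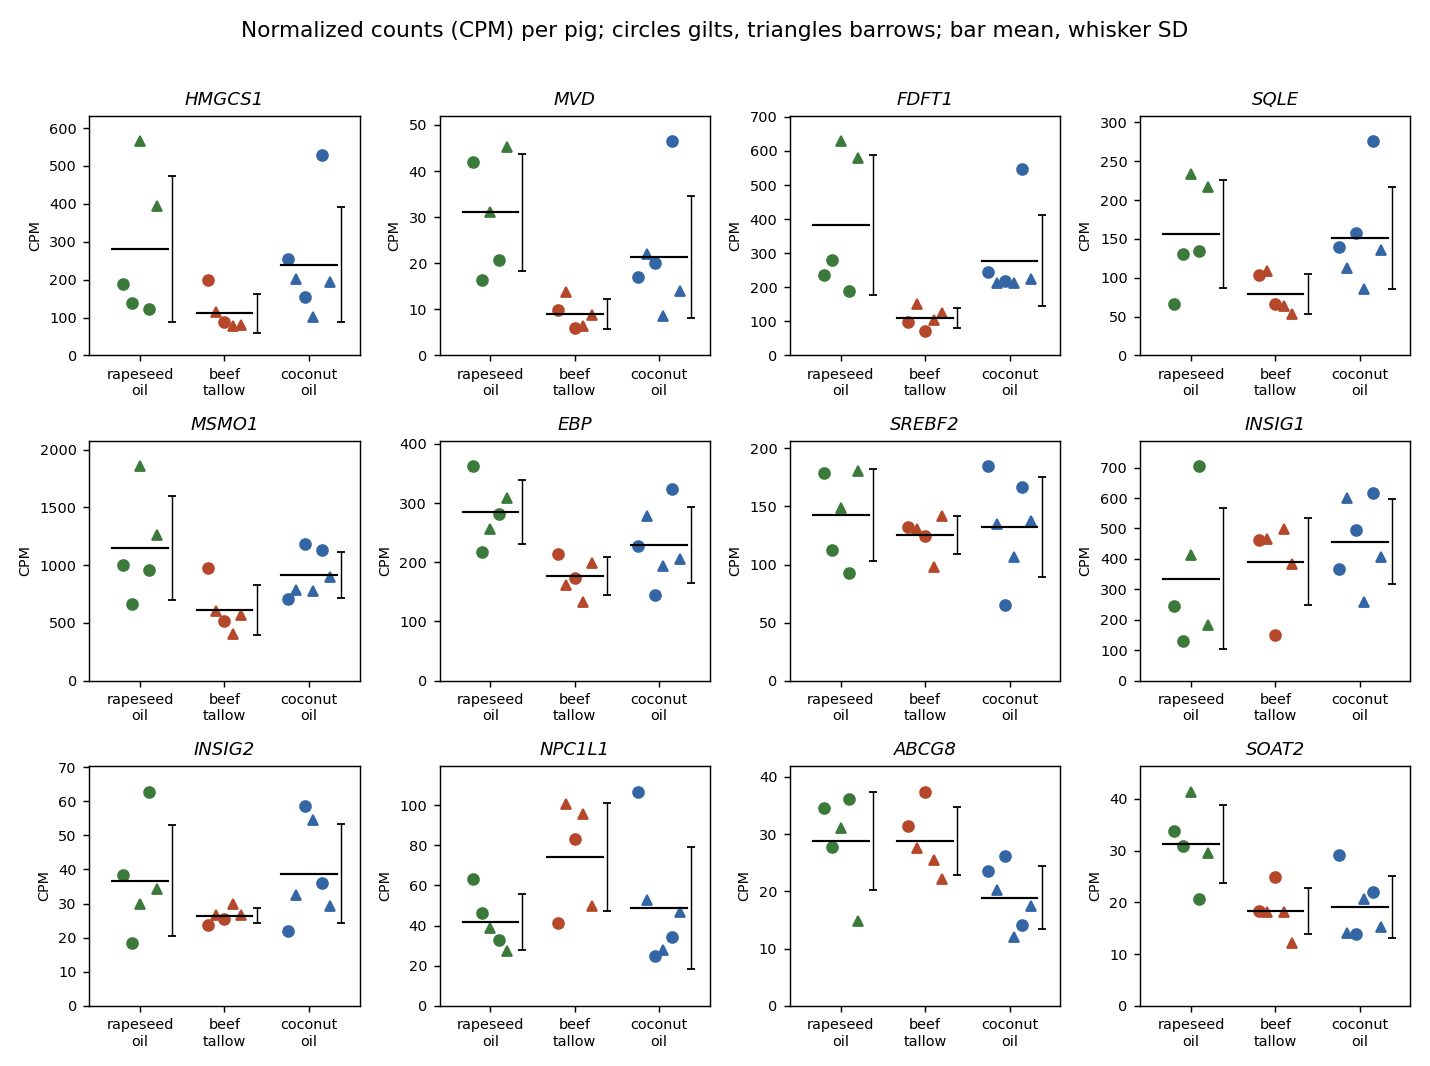
Normalized counts (CPM, linear axis from 0) of 12 members in each pig, by diet, with circles for gilts and triangles for barrows; the horizontal bar is the mean and the whisker beside it 1 SD of the diet (n = 5, 5 and 6). FDFT1, MVD and EBP of group B lie wholly below group R, while SREBF2 and INSIG1 overlap among all 3 diets.

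Both calls depended on which pigs were in the fit, more than the fold changes did. When single pigs were left out in turn, FDFT1 kept an adjusted p below 0.05 in 7 of 10 fits, and lost it without group R pig 3 (adjusted p = 0.0714), without group R pig 5 (0.0644) and without group B pig 4 (0.0591), while its log2 fold change ranged from -1.97 to -1.55. MVD kept it in 5 of 10, and lost it without pigs 1, 3 or 5 of group R and pigs 4 or 5 of group B, at log2 fold changes from -2.01 to -1.64. Without group B pig 3, whose library stood apart, the log2 fold changes were -1.68 for FDFT1 (adjusted p = 0.0197) and -1.67 for MVD (0.0249), and MVK also passed (0.0223). Of the listed cell markers, CD163 of Kupffer cells (log2 fold change 0.79, adjusted p = 0.0414) and LYVE1 of sinusoidal endothelium (0.88, 0.0495) rose in group B, and TTR of hepatocytes fell (-0.78, 0.0426). CPS1, another hepatocyte marker, had a log2 fold change of 0.83 (adjusted p = 0.0627), and the median over the 7 hepatocyte markers tested was -0.11. Sums of the 8 matched Kupffer markers were between 614 and 1147 CPM in group R, with a median of 1025 CPM. In group B they were between 848 and 1698 CPM, with a median of 994 CPM. Log2 fold changes of the 7 tested Kupffer markers ran from -0.55 to 0.79, with 6 positive. The 5 matched endothelial markers summed to between 237 and 389 CPM in group R (median 273) and 351 and 410 CPM in group B (median 397). No marker of either list was at 0 in a whole group, although CSF1R, a Kupffer marker, had 7 reads over all pigs. One of 7 Kupffer markers, 1 of 4 endothelial markers and 1 of 7 hepatocyte markers tested passed, and their part in the fall of FDFT1 and MVD was not tested.

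The remaining enzymes did not pass the adjusted threshold in this pair of diets, and their estimates were mostly negative. Along the pathway, 13 of 15 enzymes had a negative log2 fold change, where 48.5% of all genes did, and their median was -0.69 against 0.01 over all genes tested. At an unadjusted p below 0.05, 9 of 15 enzymes were lower and none higher, where 6.66% of all genes were lower and 8.33% higher. These genes share a regulator and the same pigs and are not independent of each other.

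In the mevalonate steps, HMGCS1, which makes HMG-CoA in the cytosol, was at 281 ± 192 CPM in group R and 111 ± 50.7 in group B (log2 fold change -1.33, adjusted p = 0.122). Its pigs overlapped, because group B pig 1 had 198 CPM and group R pigs 1, 2 and 4 had 188, 137 and 122 CPM. MVK, mevalonate kinase, had a log2 fold change of -0.86 (adjusted p = 0.0998). IDI1, the isomerase that makes the second isoprene unit, had one of -0.72 (0.322). All 4 tested isoprenoid enzymes were negative, with a median of -1.09.

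Among the 11 sterol enzymes the estimates were more mixed. SQLE, squalene epoxidase, had a log2 fold change of -0.97 (adjusted p = 0.135) and MSMO1, the C4 methylsterol oxidase, one of -0.91 (0.122). EBP, a sterol isomerase, was at 285 ± 54.5 CPM in group R and 177 ± 32.0 in group B, with a log2 fold change of -0.69 (adjusted p = 0.0837). EBP was the only member besides FDFT1 and MVD whose groups did not overlap, with group R from 217 to 362 and group B from 133 to 215 CPM, so 3 of 27 members were lower without overlap, where 1.99% of all genes were. LSS, lanosterol synthase, had -0.50, CYP51A1, the lanosterol demethylase, -0.45, SC5D, the lathosterol oxidase, -0.57, DHCR7, which makes cholesterol from its last precursor, -0.31, and NSDHL, a sterol dehydrogenase, -0.28. TM7SF2, a sterol reductase, and HSD17B7, a ketosterol reductase, were the 2 enzymes with positive estimates, 0.08 and 0.03, and both estimates turned negative when single pigs were left out.

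**Figure D2:**
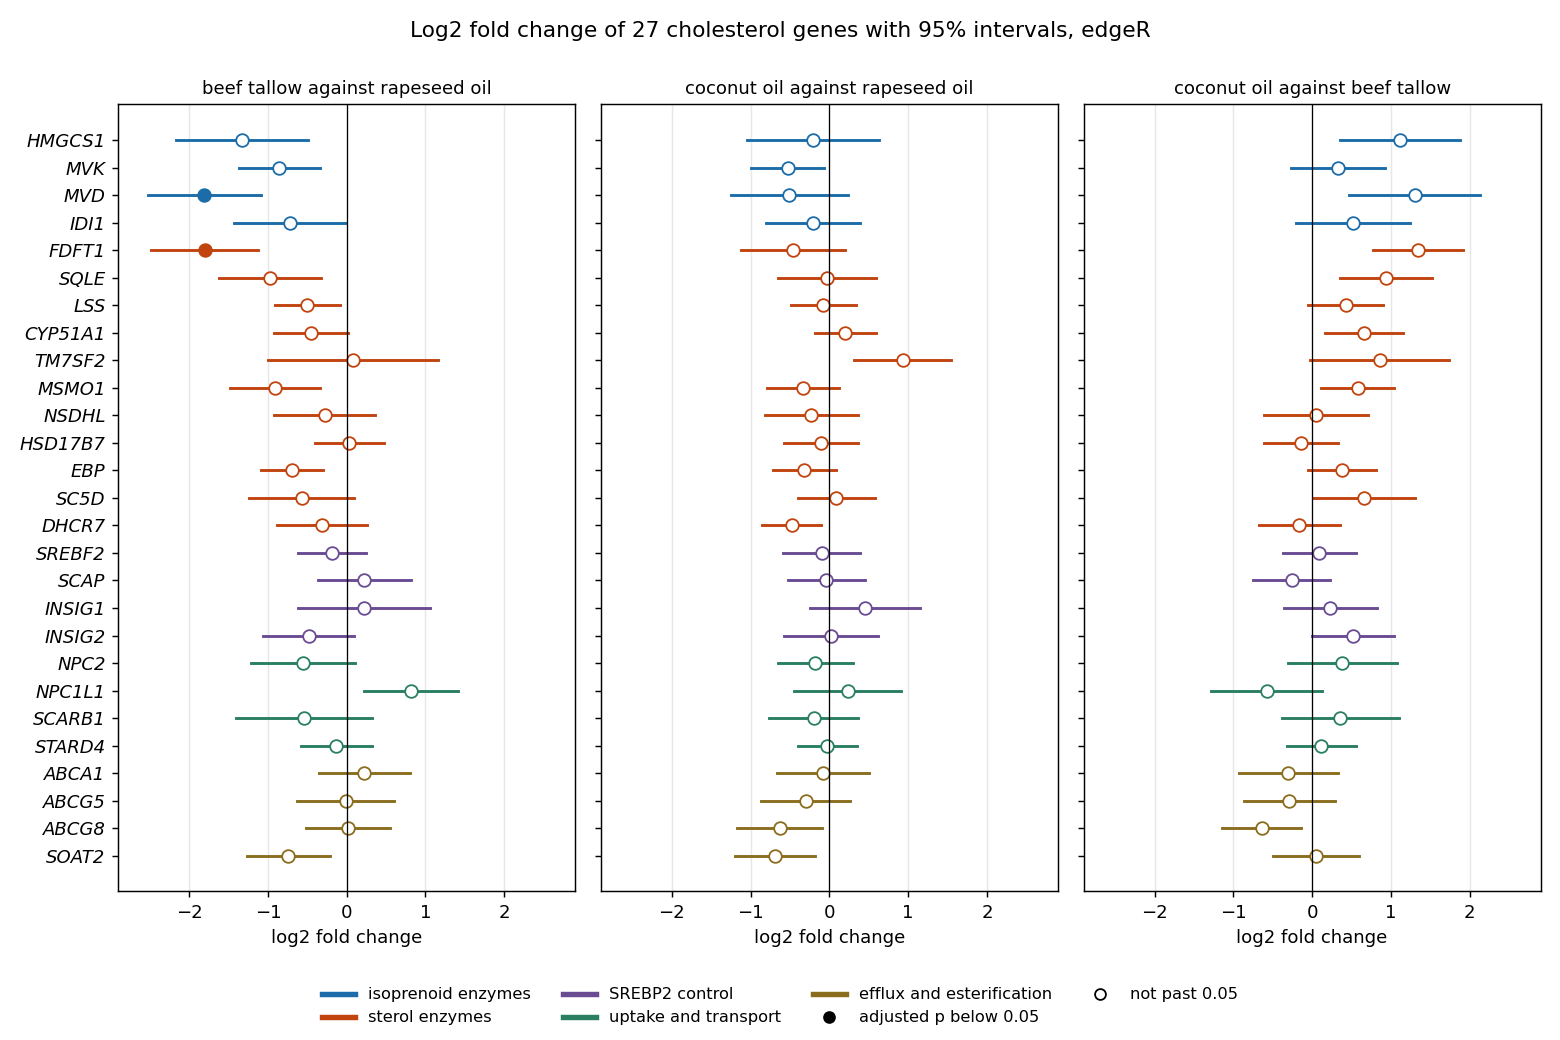
Log2 fold changes (horizontal axis) with 95% intervals of the 27 tested members in the 3 comparisons, enzymes in pathway order from the top and then SREBP2 control, uptake and transport, and efflux and esterification. Filled circles passed an adjusted p of 0.05 (FDFT1 and MVD, beef tallow against rapeseed oil, log2 fold changes -1.80 and -1.81), and open circles did not.

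The regulators were measured in the same libraries. SREBF2 had 179, 113, 149, 92.7 and 181 CPM in pigs 1 to 5 of group R and 132, 130, 125, 97.7 and 142 CPM in pigs 1 to 5 of group B. The pigs of group B lay inside the range of group R, and the log2 fold change was -0.19 (95% interval -0.62 to 0.24, adjusted p = 0.711). In group C the lowest, median and highest pig had 64.8, 136 and 184 CPM. The interval allows a fall of SREBF2 mRNA of 0.62 on the log2 scale, and the amount of cut SREBP2 protein was not measured.

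SCAP was a gene of few reads, between 12 and 50 per pig. Its levels were 22.8, 13.3, 18.1, 14.4 and 27.5 CPM in group R and 23.7, 21.2, 32.8, 14.9 and 18.8 CPM in group B, and the diets overlapped. The log2 fold change was 0.22 (95% interval -0.37 to 0.81, adjusted p = 0.756), and group C lay between 14.5 and 21.8 CPM with a median of 18.8.

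INSIG1, which is itself a target of SREBP2 as well as its brake, had its widest spread in group R. In group R its levels were 246, 130, 412, 704 and 184 CPM, a 5.40-fold span from pig 2 to pig 4. In group B they were 462, 465, 148, 498 and 383 CPM, and in group C the lowest, median and highest were 259, 451 and 617 CPM. Pig 4 of group R, the highest for INSIG1, was the lowest of its group for FDFT1, while pig 3, at 412 CPM of INSIG1, was the highest for FDFT1. With each diet's mean taken out, INSIG1 and FDFT1 had Pearson's r = 0.14 over the 16 pigs (permutation p = 0.678). The log2 fold change of group B against group R was 0.22 (95% interval -0.61 to 1.06, adjusted p = 0.841).

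INSIG2, a related retention protein, had 38.3, 18.5, 29.7, 62.8 and 34.4 CPM in group R. Group B was narrow, with 23.7, 26.5, 25.6, 29.7 and 26.5 CPM, inside the range of group R. The log2 fold change was -0.48 (95% interval -1.06 to 0.09, adjusted p = 0.416). In group C the lowest, median and highest pig had 21.8, 34.2 and 58.6 CPM.

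Among the genes of uptake and transport, NPC1L1, an importer of free sterols, had the smallest p. Its levels were 63.3, 46.2, 38.8, 33 and 27.5 CPM in group R and 41.3, 101, 83.4, 95.6 and 49.8 CPM in group B. Pigs 2, 3 and 4 of group B were above all of group R, and pigs 1 and 5 were inside its range. The log2 fold change was 0.81 (SE 0.28, 95% interval 0.21 to 1.41, adjusted p = 0.173), and in group C the lowest, median and highest pig had 24.7, 40.5 and 107 CPM. SCARB1, the HDL receptor, had a log2 fold change of -0.54 (adjusted p = 0.569), NPC2, a lysosomal sterol carrier, -0.55 (0.419) and STARD4, a cytosolic one, -0.13 (0.824). SCARB1 and NPC2 were lowest of all 16 pigs in group B pig 3, at 3.94 and 23.6 CPM.

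In efflux and storage, SOAT2, which esterifies cholesterol in hepatocytes, had the smallest p. Its levels were 33.8, 30.8, 41.4, 20.6 and 29.5 CPM in group R and 18.3, 18, 24.9, 18.1 and 12.2 CPM in group B. Group B pig 3 was the only pig of its group above the lowest pig of group R, and the log2 fold change was -0.74 (SE 0.25, 95% interval -1.27 to -0.21, adjusted p = 0.153). The coconut oil pigs were also low, with 13.9, 17.9 and 29.1 CPM as lowest, median and highest. The biliary exporters ABCG5 and ABCG8, whose genes lie next to each other on chromosome 3, had log2 fold changes of -0.01 and 0.01, and ABCA1, which loads cholesterol onto HDL, one of 0.23 (adjusted p = 0.748).

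Coconut oil was then set against rapeseed oil, 2 plant fats of which coconut oil is rich in saturated medium-chain fatty acids. None of the 27 members passed the adjusted threshold with edgeR, where 0.138% of all genes did, and DESeq2 also called 0. At an unadjusted p below 0.05, MVK (log2 fold change -0.53), DHCR7 (-0.48), ABCG8 (-0.63) and SOAT2 (-0.69) were lower and TM7SF2 (0.93) was higher in group C, where 6.53% of all genes were lower and 6.45% higher. FDFT1 was at 277 ± 133 CPM in group C (n = 6), with 212, 222 and 548 CPM as lowest, median and highest, overlapping group R. Its log2 fold change was -0.46 (95% interval -1.12 to 0.20, adjusted p = 0.577), and that of MVD was -0.51 (95% interval -1.25 to 0.23, adjusted p = 0.579).

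The enzymes had a median log2 fold change of -0.21 in this pair, with 12 of 15 negative, where 50.1% of all genes were. HMGCS1 (-0.21), SQLE (-0.03), IDI1 (-0.20), LSS (-0.08), SC5D (0.09) and HSD17B7 (-0.10) all changed sign when single pigs were left out. TM7SF2 had 16.2, 9.23, 10.3, 4.12 and 11.8 CPM in group R and between 13.9 and 25.7 CPM in group C, with group R pig 1 inside that range and the other 4 below it (adjusted p = 0.195). Groups R and C overlapped for every tested member, and did not for 1.46% of all genes. SREBF2, SCAP, INSIG1 and INSIG2 had log2 fold changes of -0.10, -0.04, 0.45 and 0.02, at adjusted p of 0.620 or more.

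Coconut oil against beef tallow compares the 2 saturated fats. No member passed the adjusted threshold with edgeR, where 0.0587% of all genes did. FDFT1 came nearest, with a log2 fold change of 1.35 (SE 0.27, 95% interval 0.78 to 1.92, adjusted p = 0.0668). All 6 pigs of group C had more FDFT1 than any pig of group B (212 CPM or more against 151 CPM or less), and it was the only member without overlap, higher as were 0.573% of all genes. With DESeq2, FDFT1 was called in this pair (1 member, with 10 others given no adjusted p), and without group C pig 5 its log2 fold change was 1.02.

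With coconut oil, 7 of the 15 enzymes had an unadjusted p below 0.05 and a higher level, as had 5.24% of all genes, namely HMGCS1 (log2 fold change 1.11), MVD (1.30), FDFT1, SQLE (0.94), CYP51A1 (0.66), MSMO1 (0.58) and SC5D (0.67). Group C pig 5 was the highest of its group in HMGCS1, MVD and SQLE, and without it their log2 fold changes were 0.71, 0.87 and 0.67. The median over the 15 was 0.58, and only 2, DHCR7 and HSD17B7, had a negative log2 fold change, where 50.4% of all genes did. ABCG8 was the 1 member lower at that level (-0.64, adjusted p = 0.325), where 6.21% of all genes were, with group B from 22.1 to 37.4 and group C from 12.1 to 26.2 CPM. In the same pair, 4 of the 7 tested Kupffer markers had less RNA with coconut oil (unadjusted p below 0.05) and 0 passed the adjustment (edgeR), with a median log2 fold change of -0.49 and sums of 614 to 886 CPM in group C against 848 to 1698 CPM in group B. Of the 4 endothelial markers tested, 1 was lower at that level, and the part of either list in the enzymes was not tested. The comparisons share the pigs of each diet, so low values in group B enter both of its contrasts. In 1 test of any difference among the 3 diets over all 16 pigs, FDFT1 passed (adjusted p = 0.0251), where 0.711% of 6891 genes did, and MVD did not (adjusted p = 0.0590).

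The pathway was also described pig by pig, as the mean over the 15 enzymes of log2 CPM less the mean of each gene over all 16 pigs. This mean ran from 0.02 to 0.69 in group R (median 0.18), from -0.90 to 0.10 in group B (median -0.48) and from -0.20 to 0.77 in group C (median 0.08). Pigs 4, 3, 5 and 2 of group B were the 4 lowest of all 16, and pig 1 of group B lay among the other diets. In pigs 2 and 4 of group B all 15 enzymes were below their own means. The highest were group C pig 5, with 14 enzymes above their means, and group R pigs 3 and 5, with 13 and 12.

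**Figure D3:**
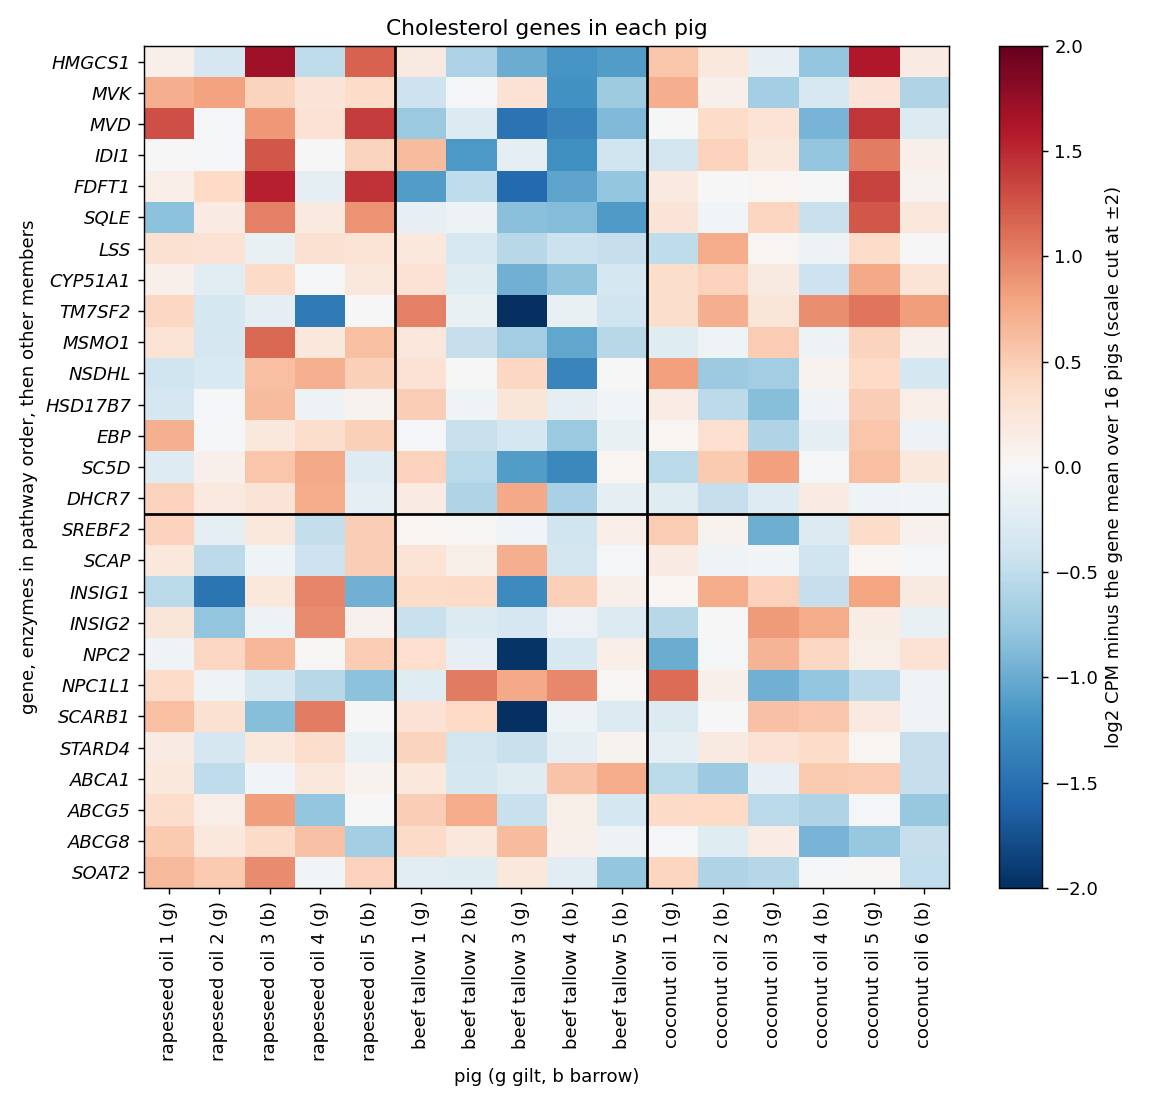
Centred log2 CPM (colour, log2 units, limited to ±2) of the 27 tested members in each of 16 pigs, with enzymes in pathway order above the horizontal line, the other members below it, and vertical lines between diets. Pigs 2 and 4 of group B have all 15 enzymes below their means, and group R pigs 3 and 5 and group C pig 5 have 12 to 14 above.

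Gilts and barrows were compared because the sexes were unevenly spread over the diets. Sex was tested over all 16 pigs with no term for diet, so the result is not adjusted for diet. No member passed with edgeR or DESeq2 (smallest adjusted p = 0.998, edgeR), where 0.0786% of all genes did in edgeR. At an unadjusted p below 0.05, DHCR7 (log2 fold change of barrows against gilts -0.48), MVK (-0.50) and ABCG8 (-0.45) were lower in barrows. These were 3 of 27 members, where 4.02% of all genes passed in either direction. With sex as a covariate, the same number of members, 2, passed for beef tallow against rapeseed oil, and the count over all genes in that fit is not given here.

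Within group R both barrows had more FDFT1, HMGCS1, SQLE and IDI1 than any gilt, while in group B this held for FDFT1 and in group C for none of the 4. FDFT1 was at 580 to 628 CPM in the 2 barrows of group R and 189 to 281 CPM in its 3 gilts. In group B the 3 barrows had 103 to 151 CPM and the 2 gilts 72.9 to 98.6 CPM, so that group B lay below group R within each sex. HMGCS1 was at 393 to 565 CPM in the barrows and 122 to 188 CPM in the gilts of group R. In group B it was at 76.5 to 114 CPM in barrows and 87.3 to 198 CPM in gilts, and in group C at 102 to 202 and 154 to 529 CPM, so that the gilts of group B overlapped those of group R.

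Tested as an interaction of diet and sex over all 16 pigs, no member passed the adjustment with edgeR (adjusted p = 1.00 for all 27) or DESeq2, as 0% of all genes did with edgeR. At an unadjusted p below 0.05, 6 of 27 members passed in edgeR, where 3.41% of all genes did, and all were enzymes, namely HMGCS1, FDFT1, SQLE, IDI1, MSMO1 and DHCR7. The smallest unadjusted p-values were 5.15e-04 for HMGCS1 and 6.48e-04 for FDFT1. These rest on 2 or 3 pigs of each sex per diet. Without a filter on low counts, SQLE, HMGCS1, FDFT1 and IDI1 were 4 of 36 genes that passed the adjustment, where the filtered fit called 0 of 6891 genes. These 4 had 48 reads or more in each pig and were kept by the filter as well. The cause of that shift was not tested.

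**Figure D4:**
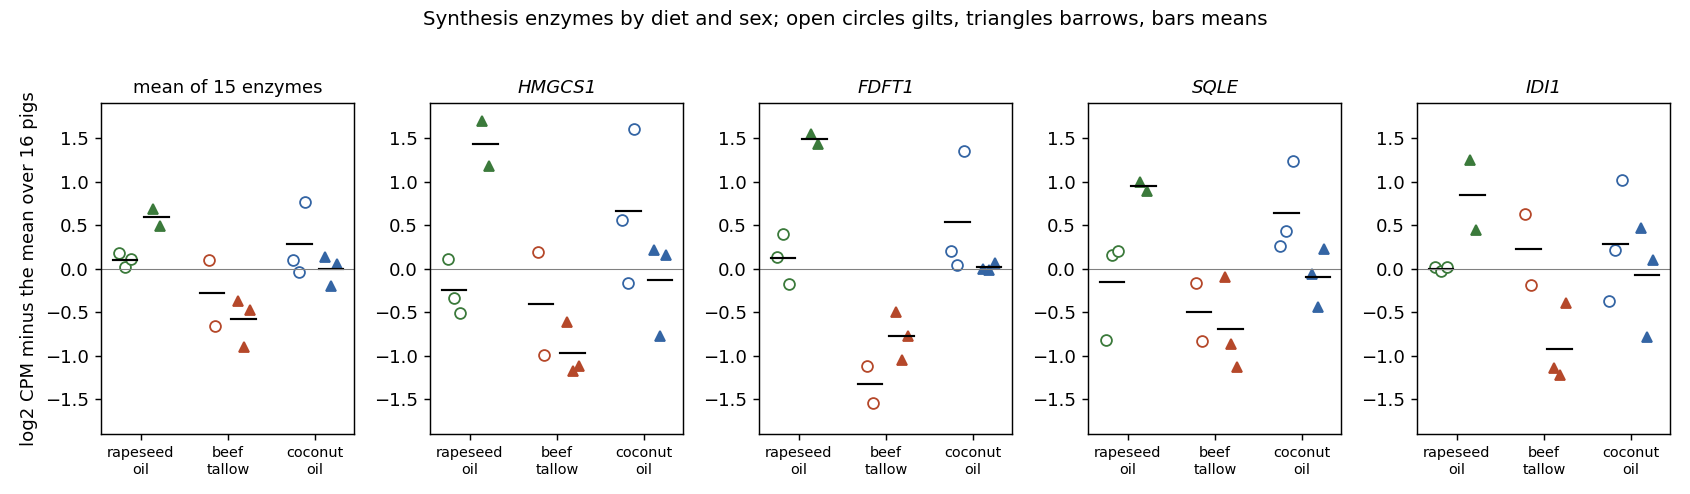
Log2 CPM less the mean over 16 pigs (vertical axis, log2 units), for the mean of 15 enzymes and for HMGCS1, FDFT1, SQLE and IDI1, by diet, with open circles for gilts, triangles for barrows and bars for the mean of each sex within a diet (n = 2 or 3). The 2 barrows of group R stand above its 3 gilts in all 5 panels, and group B barrows do not stand above all gilts of group B in the panels of HMGCS1, SQLE and IDI1.

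The neighbours of the pathway were read from 4 further lists. In the branches that use isoprenoids for prenyl groups, dolichol and ubiquinone, 0 of 6 tested genes passed in any pair, and PGGT1B, a subunit of a prenyl transferase, had the smallest p (coconut oil against rapeseed oil, log2 fold change -0.57, adjusted p = 0.392). In the machinery that cuts SREBPs and degrades sterol enzymes, 0 of 11 passed, and the smallest p was that of SYVN1, a ubiquitin ligase of the endoplasmic reticulum (coconut oil against rapeseed oil, -0.75, adjusted p = 0.114). In sterol traffic and oxysterols, 0 of 7 passed (0 of 6 between groups C and B), with GRAMD1C, a sterol transfer protein, at 15.1 CPM in group R and 4.95 CPM in group B (-1.65, adjusted p = 0.0958). In group B 1 read was worth 0.656 to 1.11 CPM, so the GRAMD1C level there rested on few reads per pig.

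In SREBP1 and fatty acid synthesis, 1 of 10 tested genes passed for beef tallow against rapeseed oil, where 1.11% of all genes did, and none in the other pairs. THRSP, a small protein of lipogenic cells, fell from a mean of 170 CPM in group R to 45.4 CPM in group B (log2 fold change -1.92, 95% interval -2.69 to -1.15, adjusted p = 0.0260). Its log2 fold change for coconut oil against rapeseed oil was -0.97 (adjusted p = 0.272). Over the 10 genes in that pair, the smallest adjusted p was 0.0644 (edgeR) and the lowest log2 fold change -1.15. The median of the 10 genes for beef tallow against rapeseed oil was -0.29, against 0.01 over all genes tested.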

How the data were processed

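The deposited files hold whole-number counts of reads per gene, which the authors made without normalization by checking reads with FastQC, mapping with TopHat and counting with HTSeq; DESeq2 is also named in the submitters' notes. QuantSeq FWD libraries were made from liver RNA. The 5 tallies of unassigned reads stayed out of library sizes and tests, and aligned reads without a unique place were counted on no gene (median 26.5%, 22.2% and 19.8% of listed reads in groups R, B and C).

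Symbols came from a table of identifiers (14857 of 25880 matched), and positions from RefSeq. Quasi-likelihood tests of edgeR 4.0.16 compared each pair of diets from the pigs of that pair alone, with no covariate (R 4.3.3, TMM, filterByExpr with a minimum count of 10 and total of 15), with Benjamini-Hochberg adjustment over all genes tested and a threshold of 0.05. Intervals of 95% are from the t distribution. Log2 CPM used a prior of 0.5 reads. Tests of any diet, of sex and of the interaction used all 16 pigs, and the test of sex had no term for diet. Fits were tested on simulated data. Alternatives were DESeq2 1.42.0, RLE, other filters, 1 joint fit, sex or diet as a covariate, a replicate block, thinned counts and each pig left out.

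Every member is named. Values per pig are given for members past the adjusted threshold, the 4 SREBP2 regulators and the member of smallest p in each role, and further members with values per pig were chosen after their values were seen. Members, lists and rules were chosen with earlier results of these data known. Some genes of the pathway are not reported here.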

Additional observations from a re-analysis of the deposited data

Results flagged for a closer look

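Among 81 groups of a tested member within a diet, 7 held a pig whose gap to its nearest neighbour was large for the range of its group by Dixon's test, which flags about 1 in 20 groups by chance. Pig 5 of group C stood above the others in FDFT1 (548 CPM, next pig 246), HMGCS1 (529 CPM, next pig 256) and MVD (46.5 CPM, next pig 21.9). Pig 3 of group R was high in IDI1 (730 CPM, next pig 421) and low in LSS (60.8 CPM, next pig 81.6). Pig 1 of group B was high in LSS (78.7 CPM, next pig 54.1), and pig 1 of group C in NPC1L1 (107 CPM, next pig 52.6).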

How the results depend on the processing

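For beef tallow against rapeseed oil, 2 members passed. DESeq2 called 6 (MSMO1, MVK, HMGCS1, FDFT1, EBP and MVD) and no filter on low counts 6 (SQLE in place of EBP). At least 10 reads in every pig gave 1 (FDFT1), but MVD, with 6 reads in its poorest pig, was not tested in that fit. RLE, 1 fit of all pigs, sex as a covariate and thinned counts gave 2. Leaving out 1 pig gave 0 to 3. Counts over all genes are not given here for the 10-read filter, RLE, joint, sex covariate, thinned and left-out fits. Over all genes the main fit called 70, and 190 were called with DESeq2, 190 without the filter and 35 with the block. For coconut oil against beef tallow, 0 passed, and 1 (FDFT1) with DESeq2 and 1 without the filter (all genes 4, 46 and 22). For coconut oil against rapeseed oil every fit called 0 members (all genes 9, 93 and 82). For any diet, 1 passed, with DESeq2 2, without the filter 5 (all genes 49, 220 and 190), and with a pig left out 0 to 2. For the interaction, 0 passed, and without the filter 4 (all genes 0 and 36). The cause of these shifts was not tested. The enzyme medians kept their sign in every alternative, with ranges on leaving out a pig of -0.83 to -0.56, -0.40 to -0.09 and 0.46 to 0.87 for B against R, C against R and C against B.

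Correlations of same-numbered pigs ran from -0.23 to 0.13, and 0, 2 and 1 of 5 pairs correlated best with their own number. With 5 pairs, this check cannot exclude that the replicate numbers paired the pigs. With the replicate block, 2, 0 and 0 members passed in the 3 pairs and 1 for any diet.

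Small log2 fold changes changed sign. For beef tallow against rapeseed oil these were TM7SF2 (-0.0031 with the block, -0.50 to 0.41 leaving out a pig), ABCG8 (-0.13 with thinned counts, -0.15 to 0.10), ABCG5 (-0.19 to 0.19) and HSD17B7 (-0.081 to 0.20). For coconut oil against rapeseed oil they were STARD4 (0.077 with the block, -0.11 to 0.070), ABCA1 (0.37 thinned, -0.27 to 0.023), SCARB1 (0.080 thinned, -0.37 to 0.023), HMGCS1 (-0.62 to 0.20), HSD17B7 (-0.25 to 0.063), IDI1 (-0.44 to 0.10), INSIG2 (-0.14 to 0.29), LSS (-0.23 to 0.022), NPC1L1 (-0.15 to 0.45), SC5D (-0.023 to 0.25), SCAP (-0.14 to 0.12), SQLE (-0.30 to 0.16) and SREBF2 (-0.22 to 0.034). For coconut oil against beef tallow they were NSDHL (-0.0019 with sex as a covariate, -0.13 thinned, -0.18 to 0.19), DHCR7 (-0.29 to 0.13), SOAT2 (-0.11 to 0.21) and SREBF2 (-0.023 to 0.22). Depth limits the members of few reads, TM7SF2, ABCA1, SCAP, MVD, SOAT2, SCARB1 and ABCG8, which had between 268 and 449 reads over all pigs.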

Other observations

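How the members moved together was examined after their values were seen, with log2 CPM of each of 26 members set against FDFT1 over 16 pigs after each diet's mean was taken out. HMGCS1 had Pearson's r = 0.79 (permutation p = 0.00572, adjusted 0.077) and Spearman's rho = 0.68 (permutation p = 0.0127, adjusted 0.11), and SQLE had r = 0.74 (permutation p = 0.00592, adjusted 0.077) and rho = 0.68 (permutation p = 0.00999, adjusted 0.11). MVD followed, with r = 0.65 (permutation p = 0.0182, adjusted 0.158) and rho = 0.56 (permutation p = 0.0395, adjusted 0.21). CYP51A1 had r = 0.53 (permutation p = 0.0247, adjusted 0.161) and rho = 0.63 (permutation p = 0.0121, adjusted 0.11). Against the direction of these, DHCR7 had r = -0.50 (permutation p = 0.0351, adjusted 0.182) and rho = -0.53 (permutation p = 0.0485, adjusted 0.21), and ABCG8 had r = -0.55 (permutation p = 0.051, adjusted 0.221) and rho = -0.52 (permutation p = 0.0484, adjusted 0.21). None of the 26 passed an adjusted p of 0.05. Without group R pig 3 and group C pig 5, the 2 farthest from the median of FDFT1, r was 0.59 for HMGCS1 and 0.55 for SQLE, that of IDI1 went from 0.41 to -0.00, and r was -0.73 for DHCR7 and -0.68 for ABCG8. By r, HMGCS1 ranked 6 and SQLE 11 among 6890 genes. The median r was 0.40 over 14 enzymes (0.081 without those 2 pigs), 0.16 over the 12 other members and 0.02 over all genes. The points share libraries and their depth, and the enzymes share a known regulator. Sex was not taken out, and both barrows of group R were above its gilts in FDFT1, HMGCS1, SQLE and IDI1.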
